A study of Mus musculus with 46 samples.

Results

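miR-122 is a miRNA of the liver, and the levels of its arms, mmu-miR-122-5p and mmu-miR-122-3p, were followed over tissue, storage temperature, storage time and RNA integrity. They were chosen by name and are 2 of the 1881 mouse miRNAs on the array. Both passed the detection minimum of 5 of the 45 analysed arrays, which 815 miRNAs met. The arrays measured miRNAs in heart, liver and brain of mice after the tissue had been left to degrade, and the question is what storage and RNA degradation do to miRNA measurements. The donors were male C57BL6 mice of an Il1a knock-out strain, a genotype that every sample shared, and their ages are not given in the sources used here. Each organ was cut into 8 parts directly after death. The parts of a given animal were kept either at 4 °C or at room temperature (RT) until RNA was stabilized after 0, 1, 3, 6, 12, 24, 48 or 96 h. The labels give 12 h where the methods give 14 h, and the labels were followed.

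The 45 analysed arrays were 6 of liver, 7 of heart and 8 of brain at 4 °C, and 8 of each tissue at RT. Liver at 4 °C was analysed at 0, 1, 3, 12, 24 and 48 h. Heart at 4 °C was analysed from 1 h on, because its 0 h array had low-quality data and was set aside. There was 1 array per tissue, temperature and time, so no value has a replicate at its own time point, and tests rest on the spread around lines or tissue means. The arrays of a tissue and temperature lay on 1 slide and, by the methods, came from pieces of the organ of 1 animal, so animal, slide and temperature cannot be told apart. The methods also give the tissues of a temperature as those of the same individual, which the labels do not state. An array's detected miRNAs added up to between 153088 and 541770 signal units, between 268 and 798 miRNAs were detected per array, and 0 miRNA spots were saturated. The number of arrays limits the precision.

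A miRNA hairpin gives rise to a pair of mature strands, named 5p and 3p after the arm they come from. In miR-122 the 5p strand is the guide that is loaded into Argonaute proteins and represses target mRNAs, and the 3p strand is the passenger that is mostly discarded. miR-122 is made by hepatocytes, in which it is among the most abundant of all miRNAs, and it is known for its role in cholesterol and lipid metabolism, in liver differentiation, and as a host factor of hepatitis C virus. Its release into blood is used as a marker of liver injury.

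Levels are given as log2 values after variance stabilizing normalization (VSN), which scales the arrays to each other and evens out the spread of dim and bright signals. A difference of 1 is a doubling for bright miRNAs. A level is therefore relative to the other miRNAs on the arrays, and fewer hepatocytes and less miR-122 per hepatocyte cannot be told apart in RNA of whole tissue. The arms are read by different probes, so only changes across arrays are set beside each other, not the level of one arm against the other.

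In liver stored at 4 °C for 0, 1, 3, 12, 24 and 48 h, the level of miR-122-5p was 12.62, 15.31, 14.90, 14.92, 14.43 and 15.30 in this order. In liver stored at RT for 0, 1, 3, 6, 12, 24, 48 and 96 h, it was 14.67, 15.43, 15.43, 15.19, 14.73, 13.08, 11.44 and 11.14. The RT levels stayed close together through 12 h and were lower at each later time, and the 0 h array stood apart as the lowest at 4 °C. On all 14 liver arrays the strand was detected. It made up a median of 7.31% of the summed signal of detected miRNAs, with a range from 1.06% on the RT array of 96 h to 9.44% on the RT array of 6 h.

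The passenger strand miR-122-3p was detected on the same 14 liver arrays. Over the same 6 storage times at 4 °C its level was 6.14, 8.53, 8.07, 7.78, 7.22 and 8.64. Over the 8 times at RT it was 7.93, 8.85, 8.67, 8.15, 7.67, 5.92, 4.15 and 2.67. As for the guide, the highest RT level was reached in the first 3 h and the lowest level of all liver arrays was that of 96 h at RT. Before scaling, the signal of miR-122-3p was 372 units at 6 h and 14.8 units at 96 h.

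**Figure D1:**
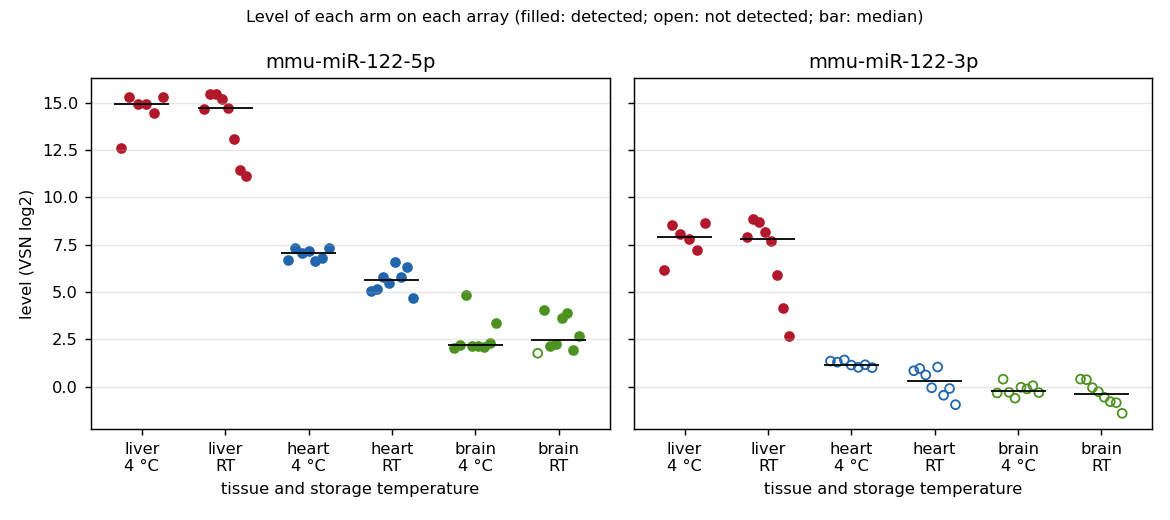
Level of miR-122-5p (left) and miR-122-3p (right) on each of the 45 analysed arrays, as VSN log2 values, by tissue and storage temperature; points run from the earliest to the latest storage time, open points were not detected and bars are medians. miR-122-5p lies at 11.14 or higher on every liver array and at 7.34 or lower elsewhere, and miR-122-3p was detected in liver but on no heart or brain array.

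To compare the tissues in intact RNA, arrays with an RNA integrity number (RIN) over 6 were used, which are 6 of liver, 13 of heart and 14 of brain. Of the 6 liver arrays, 5 were pieces of 1 liver at 4 °C and 1 came from RT, so they are not 6 independent animals. RIN is a score of how intact the total RNA is. miR-122-5p ranged from 12.62 to 15.31 in these liver arrays with a median of 14.79, from 5.03 to 7.34 in heart with a median of 6.64, and from 1.76 to 4.83 in brain with a median of 2.23. The ranges did not overlap between liver and the other tissues, nor between heart and brain. How many of the 815 tested miRNAs have separate ranges was not counted. By limma with slide as a random block, liver exceeded heart by 8.12 ± 0.448 (SE, log2, adjusted p = 3.507e-17) and brain by 11.71 ± 0.443 (adjusted p = 1.431e-22), and heart exceeded brain by 3.59 ± 0.355 (adjusted p = 4.873e-11). As a ratio of the mean levels, liver was 275.7-fold above heart. No ratio is given for brain, where the strand was detected on 13 of the 14 arrays and lay near the detection limit on most. Higher levels in liver were called for 9.33% of the 815 tested miRNAs against heart and for 14.6% against brain, and higher levels in heart than in brain for 21.8%.

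miR-122-3p had a median of 7.85 in the same liver arrays, with a range from 6.14 to 8.53. It was detected on 0 of 15 heart and 0 of 16 brain arrays, so these tissues give only a bound. Set against the lowest detected level of each array, or the strand's own value where that was higher, the mean liver level was at least 73.5-fold higher than in heart and at least 83.4-fold higher than in brain. These bounds carry no test, since miR-122-3p met the detection minimum through liver alone. They hold for the main processing, and other settings moved them up or down. The order of the tissues was the same in degraded RNA. With RIN of 6 or lower, miR-122-5p ranged from 11.14 to 15.43 on 8 liver arrays, was 6.31 and 4.70 on 2 heart arrays, and 1.92 and 2.66 on 2 brain arrays.

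Both strands fell with storage in liver at RT. Along a straight line through the 8 arrays, miR-122-5p fell by 1.16 ± 0.226 (SE, log2) per 24 h, with an adjusted p of 2.53e-05 by limma. The fall of miR-122-3p was 1.57 ± 0.147 per 24 h (adjusted p = 3.532e-11). The slopes come from these 8 arrays, but the spread behind each limma SE and p-value was estimated over all 45 analysed arrays. For miR-122-3p these include the heart and brain arrays, on which it was not detected. Its limma SEs and p-values thus do not measure the spread in liver alone. Without the 96 h array the slopes were steeper, -1.99 (adjusted p = 0.0002066) and -2.29 (adjusted p = 1.457e-08). Falling levels on this slide were called for 34% of the 815 miRNAs and any change for 75.2%, and the median slope of all 815 was 0.15. Among the 225 miRNAs detected on all 8 of these arrays, 99 fell and 79 rose, 47 had a steeper downward slope than miR-122-5p and 5 a steeper one than miR-122-3p. Over the first 24 h alone the slope of miR-122-5p was -2.04 per 24 h and did not pass the test (adjusted p = 0.05887), while that of miR-122-3p was -2.55 (adjusted p = 0.00139).

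Most of the loss came after 12 h. Between 12 h and 96 h miR-122-5p changed by -3.60 on the log2 scale, which left 8.28% of the 12 h level, and miR-122-3p changed by -5.01, which left 3.11%. The median change over the 225 miRNAs in this interval was -1.17, with 43 miRNAs lower than miR-122-5p and 7 lower than miR-122-3p. Each strand is read by a pair of probes with up to 15 spots each, and all 4 probes gave lower signals at 96 h than at 12 h. On the unscaled signal the changes over this interval were -3.07 and -2.82 for the probes of miR-122-5p and -4.18 for the brighter probe of miR-122-3p. The dimmer probe of miR-122-3p had 0 of its 15 spots well above background at 96 h, so no size is given for its change. The ratio of the paired probes ran from 1.77 to 2.36 for miR-122-5p and from 4.70 to 5.43 for miR-122-3p on the liver arrays. For miR-122-5p the highest ratio, 2.36, was that of 96 h at RT, and the next, 2.03, that of 48 h at RT. Between these times the unscaled signals of its probes rose, from 5088 to 5817 and from 10345 to 13735. The scaled level of miR-122-5p went from 11.44 to 11.14.

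**Figure D2:**
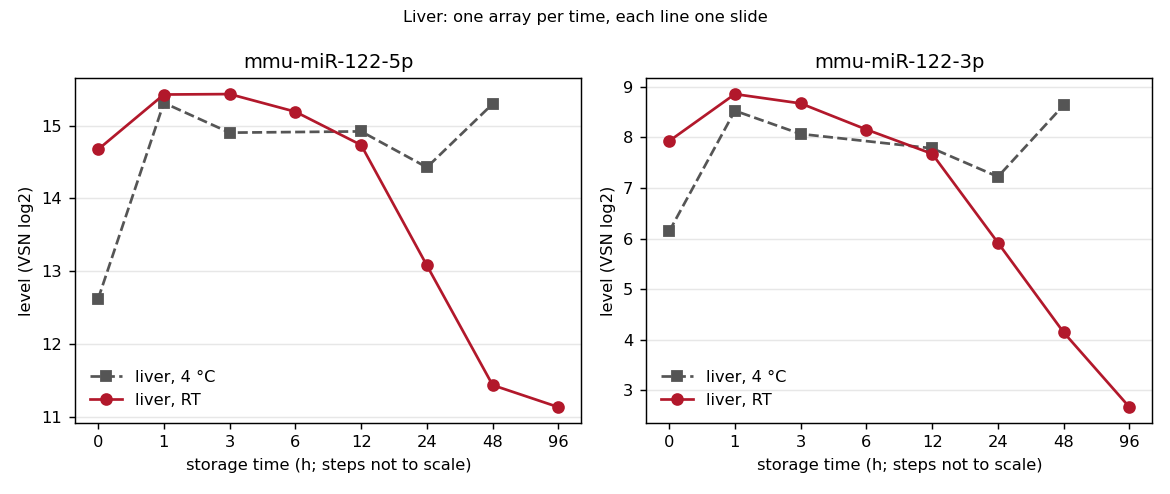
Level of miR-122-5p (left) and miR-122-3p (right) in liver by storage time in hours, VSN log2 values, with 1 array per point and 1 slide per line; time steps are evenly spaced and not to scale. At RT miR-122-5p lies at 14.67 or more to 12 h and miR-122-3p goes from 8.85 at 1 h to 7.67 at 12 h, and both then drop, to 11.14 and 2.67 at 96 h, while at 4 °C the 0 h array is the lowest of its line.

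At 4 °C no change over 48 h passed the test. The slopes were 0.50 ± 0.476 per 24 h for miR-122-5p (limma adjusted p = 0.5375) and 0.47 ± 0.310 for miR-122-3p (adjusted p = 0.4436), where 2.94% of the tested miRNAs were called. For miR-122-3p the SE again rests in part on arrays without detection. Without the 0 h array the slope of miR-122-5p was 0.03, and without the 48 h array that of miR-122-3p was -0.14. On the 0 h array miR-122-5p differed from the mean of the other 5 arrays of the slide (14.97 ± 0.363, SD) by -2.35, and miR-122-3p from its own (8.05 ± 0.576) by -1.91. The whole array was low in this sense: over 216 miRNAs detected on all 6 arrays the median was -1.54 against the same mean, and 15 miRNAs lay lower than miR-122-5p. This array had the highest RIN of the slide, 9.1, and the fewest detected miRNAs, 268.

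The slope at RT differed from that at 4 °C by -1.67 per 24 h for miR-122-5p (limma, adjusted p = 0.01245) and by -2.04 for miR-122-3p (adjusted p = 5.221e-05), a difference in this direction being called for 24.5% of miRNAs. The p-values of miR-122-3p here rest in part on the spread of undetected values in heart and brain. Without the 48 h array at 4 °C the values were -1.62 (adjusted p = 0.4209) and -1.43 (adjusted p = 0.2431), and without the 0 h array the difference for miR-122-5p was -1.20 (adjusted p = 0.09542). The difference for miR-122-5p also did not pass without scaling, with the 75th percentile of miRNAs detected on all arrays, or with quantile normalization (-1.22, -1.02 and -0.90). The temperatures can be read side by side at the 6 matched times. From the earliest (0 h) to the latest (48 h), RT minus 4 °C for miR-122-5p was 2.05, 0.11, 0.53, -0.19, -1.35 and -3.86. RT liver was the higher through 3 h and the lower from 12 h on, with 1 animal on each side.

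In liver at RT the level followed the hours of storage. Pearson's r of miR-122-5p with hours was -0.91 over 8 arrays (exact permutation p = 0.000918, adjusted p = 0.00367 over 8 relations), and -0.88 without the 2 times farthest from the median. Spearman's rho was -0.74 (exact permutation p = 0.0458, adjusted p = 0.183). For miR-122-3p r was -0.96 (exact permutation p = 0.000397, adjusted p = 0.00317) and -0.92 without the 2 farthest times, and rho was -0.86 (exact permutation p = 0.0107, adjusted p = 0.0857). The rank relations did not pass after adjustment. Both strands were higher at 1 h and 3 h than at 0 h.

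In liver at RT most of the drop in RIN came before most of the fall of miR-122. On the RT slide RIN dropped from 7.1 to 6.0, 4.1 and 2.8 over the first 6 h, and then only from 2.7 at 12 h and 24 h to 2.4 and 2.3 at the last times. Between 0 h and 6 h RIN thus lost most of its value while miR-122-5p went from 14.67 to 15.19, and between 6 h and 96 h RIN moved little while miR-122-5p went from 15.19 to 11.14. The 48 h array at 4 °C, with a RIN of 3.4, had a miR-122-5p level of 15.30, close to the highest level of that slide, 15.31 at 1 h with a RIN of 7.4.

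**Figure D3:**
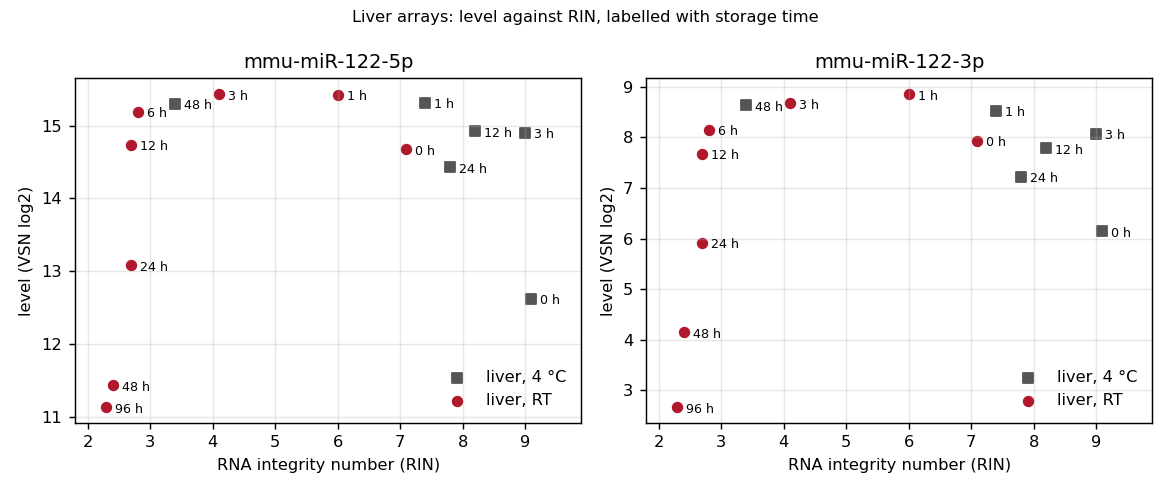
Level of miR-122-5p (left) and miR-122-3p (right) against RIN on the 14 liver arrays, VSN log2 values, each point labelled with its storage time. Down to a RIN of 2.8 the RT arrays keep levels of 14.67 or more for miR-122-5p, and the arrays of 12 h to 96 h lie between 14.73 and 11.14 at RIN values from 2.7 to 2.3.

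In the fit with slide as a fixed block, the slope of miR-122-5p on RIN in liver was 0.16 ± 0.155 per RIN unit (limma adjusted p = 0.3776) and that of miR-122-3p was 0.25 ± 0.154 (adjusted p = 0.1672). Neither passed the test, while 53.6% of the 815 miRNAs did. In this fit too the spread of miR-122-3p includes its undetected values in heart and brain. The call for miR-122-3p depends on the processing: with tissue in place of slide as the block, and with 3 of the other scalings, slopes from 0.26 to 0.49 passed, and within arrays of RIN over 6 the estimate turned to -0.68. The slopes of miR-122-5p in heart and brain were 0.05 and -0.0145 and did not pass, and its slope in liver was not shown to differ from these. The correlation with RIN over the 14 liver arrays was 0.31 for miR-122-5p (permutation p = 0.284, rho 0.25 with permutation p = 0.383) and 0.37 for miR-122-3p (permutation p = 0.200, rho 0.30 with permutation p = 0.297). After leaving out the 2 arrays with the most extreme RIN these were 0.50 and 0.48. Within the RT slide r was 0.56 and 0.59, and rho was 0.72 (exact permutation p = 0.0519) and 0.85 (exact permutation p = 0.0112). Within the 4 °C slide r was -0.51 and -0.60 and rho was -0.77 for both strands, so the sign turned between the slides. None of the 12 relations with RIN passed after adjustment, by r or by rho.

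Splitting the 14 liver arrays at a RIN of 6 put 8 arrays with low and 6 with high RIN against each other. miR-122-5p had medians of 14.96 and 14.79 and overlapping ranges (11.14 to 15.43 and 12.62 to 15.31). The exact two-sided Wilcoxon-Mann-Whitney test gave p = 0.8518 (adjusted p = 0.9394) with a difference in means of -0.51. For miR-122-3p the medians were 7.91 and 7.85, the difference in means was -0.77, and the exact test gave p = 0.9497 (adjusted p = 0.9848). Differences were called for 27.7% of the 815 miRNAs in this comparison. RIN was tied to the slide, with 7 low and 1 high array at RT and 1 low and 5 high at 4 °C. With slide as a block limma called 0 miRNAs (173 had an unadjusted p under 0.05), and after quantile normalization the rank test called 0 (312 unadjusted).

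The arms moved apart with storage at RT. The difference miR-122-5p minus miR-122-3p was 6.75 at 0 h and 6.57 at 1 h, and over the later times 6.76, 7.04, 7.06, 7.16, 7.30 and, at 96 h, 8.47, so that the passenger strand lost ground from 1 h on. Its r with hours was 0.97 over 8 arrays (exact permutation p = 0.000124, adjusted p = 0.00062 over 5 relations) and rho was 0.98 (exact permutation p = 0.000397, adjusted p = 0.00124). Without the 2 times farthest from the median r was 0.84. With RIN on the RT slide, the difference had a rho of -0.97 (exact permutation p = 0.000496, adjusted p = 0.00124). The r with RIN there was -0.62 (exact permutation p = 0.0988, adjusted p = 0.165). RIN fell or held at every step of this slide, so hours and RIN cannot be told apart by rank. On the unscaled signal the difference was 7.35 at 48 h and 8.60 at 96 h, where miR-122-3p was down to 14.8 units. After normexp background correction with quantile normalization r was 0.24 (exact permutation p = 0.609), and in that table miR-122-5p had the same top value on 5 of the 8 arrays. At 4 °C the difference was 6.48, 6.79, 6.84, 7.14, 7.21 and 6.66 over the 6 times. It thus rose at each step through 24 h at 4 °C as well, and was lower again on the 48 h array. Over all 6 arrays there was no relation to hours (r 0.10, exact permutation p = 0.868). Without the 2 times farthest from the median r was 0.90 at 4 °C.

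**Figure D4:**
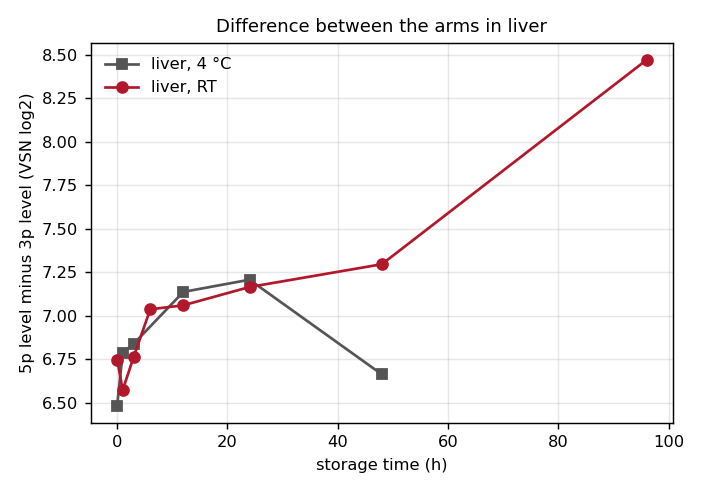
Difference between the levels of miR-122-5p and miR-122-3p (VSN log2) in liver against storage time in hours on a linear axis, with 1 array per point. The RT line climbs from 6.57 at 1 h to 8.47 at 96 h, and the 4 °C line climbs to 7.21 at 24 h and is back at 6.66 at 48 h.

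In heart, miR-122-5p was detected on all 15 analysed arrays, with signals from 26.9 to 155 units where liver had 4454 to 48929 units. At 4 °C it lay between 6.64 and 7.34 with a median of 7.03, and at RT between 4.70 and 6.60 with a median of 5.63. The highest RT level thus lay just below the lowest at 4 °C, and how many miRNAs separate in this way was not counted. The 0 h array at 4 °C, which was set aside, had 16.4 units, a lower signal than on any analysed heart array. RT was lower than 4 °C at each of the 7 matched times. RT minus 4 °C was already -1.50 at 1 h, with 1 animal and 1 slide on each side. Of the other liver-linked miRNAs, miR-192-5p also lay lower on the RT heart slide (median 5.06 against 5.57), and miR-802-5p was detected on 0 of the 15 arrays. The array means of the red blood cell markers miR-451a, miR-144-3p and miR-486a-5p had medians of 10.26 at 4 °C and 10.67 at RT. The slope of miR-122-5p over time in heart was -0.12 per 24 h at RT (limma adjusted p = 0.6503, with 52.1% of miRNAs called), and with normexp and quantile normalization it was -0.16 and passed (adjusted p = 0.03933). At 4 °C it was 0.06 (adjusted p = 0.999), in a comparison in which limma called 0% of miRNAs and 49 had an unadjusted p under 0.05.

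In brain, miR-122-5p was detected on 15 of 16 arrays, the exception being 0 h at RT, and lay near the detection limit on most. At 4 °C it ranged from 2.06 to 4.83 with a median of 2.19, and at RT from 1.76 to 4.02 with a median of 2.45. The levels above 3 were those of 3 h (4.83) and 96 h (3.38) at 4 °C, and of 1 h (4.02), 12 h (3.61) and 24 h (3.91) at RT. miR-802-5p was detected on 0 of the 16 brain arrays. On the array of 3 h at 4 °C the highest miR-192-5p and blood-cell levels of that slide, 5.09 and 7.31, were measured as well, and on the array of 1 h at RT those of its slide, 5.86 and 7.56. The brain and endothelial marker levels of these 2 arrays were the highest of their slides too. On the other 3 arrays above 3 the blood-cell level was 6.43, 6.03 and 6.35, within the range of their slides, and the 96 h array at 4 °C had the lowest miR-192-5p level of its slide, 4.00. Their part in the miR-122-5p values was not tested. The slope over time was -0.06 per 24 h at RT (limma adjusted p = 0.8316, with 43.2% of miRNAs called), and at 4 °C, where limma called 0% and 45 miRNAs had an unadjusted p under 0.05, it was 0.12 (adjusted p = 0.8099).

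**Figure D5:**
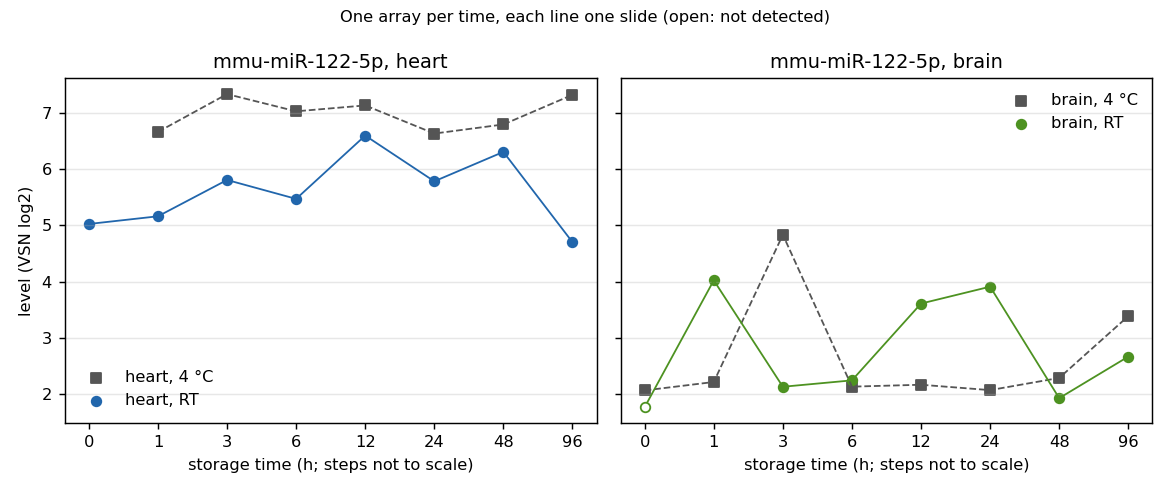
Level of miR-122-5p in heart (left) and brain (right) by storage time in hours, VSN log2 values, with 1 array per point and 1 slide per line; time steps are not to scale and the open point was not detected. In heart the RT line lies under the 4 °C line at each shared time, and in brain 5 of 16 arrays lie above 3.

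The fall of miR-122-5p in liver at RT was steeper than its slope in heart at RT, with a difference of -1.05 per 24 h (limma adjusted p = 0.009826) and of -1.10 against brain at RT (adjusted p = 0.007308). Without the 96 h liver array these were -1.87 and -1.93 and passed. A more negative slope in liver was called for 19.4% of the miRNAs against heart and for 20.7% against brain. With quantile normalization these differences were -0.43 and -0.57 and did not pass (adjusted p = 0.1947 and 0.05979). For miR-122-3p no such comparison is given, as it has no measured level in heart or brain.

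Markers of other cell types were read on the liver arrays. The 6 heart muscle markers (the miR-1a, miR-133, miR-208 and miR-499 strands) had a mean level from -1.60 to 0.43 in liver against 9.23 to 10.69 in heart, and 3 of the 6 were detected on no liver array. The 6 brain markers, such as miR-124-3p and miR-9-5p, ranged from -0.83 to 3.12 in liver against 10.94 to 12.39 in brain, with the highest value on the RT array of 3 h, the source of which was not tested. The markers of blood cells and vessels were also lower on the late RT arrays of liver. Between 12 h and 96 h the mean level of the 3 red blood cell markers went from 6.67 to 3.47, that of 3 leukocyte markers from 5.49 to 1.45, and that of the endothelial miR-126a-3p from 9.79 to 4.97. The part of cell composition in the fall of miR-122 was not tested.

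miRNAs whose pattern was most like miR-122 were sought by Pearson's r over the 45 arrays, which share slides, animals and depth, among the 815 tested miRNAs. For miR-122-5p these were miR-192-5p (r 0.97), miR-194-5p (0.93), miR-802-5p (0.93), miR-148a-3p (0.93) and miR-192-3p (0.93), and for miR-122-3p they were miR-192-5p (0.99), miR-194-5p (0.99), miR-802-5p (0.98), miR-192-3p (0.97) and miR-193a-3p (0.91). Liver and the other tissues form separate clusters, and r over all arrays includes that distance. miR-122-3p, miR-802-5p and miR-192-3p were detected on no heart or brain array. Their r values set liver against undetected values and were in large part fixed by that. The mature strands of the 4 nearest to the guide are shown, from RefSeq on GRCm38.p6, to let a reader see whether they are alike in sequence, with the seed (bases 2 to 8) in capitals.
miR-192-5p: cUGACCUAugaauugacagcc
miR-194-5p: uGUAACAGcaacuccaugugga
miR-802-5p: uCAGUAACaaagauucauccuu
miR-148a-3p: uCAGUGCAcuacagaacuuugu
The 4 seeds are all different. miR-192-5p (chr19:6264857-6264877, plus strand) lies beside a copy of miR-194-5p (chr19:6264658-6264679, plus strand), and a further copy of miR-194-5p lies at chr1:185313325-185313346 on the plus strand. miR-802-5p lies at chr16:93369737-93369758 on the plus strand and miR-148a-3p at chr6:51269829-51269850 on the minus strand.

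Within the 14 liver arrays alone, among 189 miRNAs detected on all of them, the closest to miR-122-5p were miR-98-5p, miR-221-3p, miR-126a-5p, miR-30d-5p and miR-151-5p, with r from 0.996 to 0.998, ahead of its own passenger strand at 0.98. miR-98-5p belongs to the let-7 family and miR-126a-5p comes from an endothelial hairpin. These points share animals, slides and the array-wide shift described for the 0 h array at 4 °C.

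Of a list of 12 other miRNAs linked to liver in general knowledge, 8 were tested. For 3 of them, miR-192-3p, miR-194-2-3p and miR-802-5p, detection was in liver alone, so that a higher level there was fixed by the detection minimum. Of the other 5, 5 were called higher in liver than in heart (9.33% of all tested) and 4 higher in liver than in brain (14.6% of all), and the fifth, miR-33-5p, an intronic miRNA of a sterol regulator gene, was called lower in liver than in brain at -1.41. In liver at RT the slopes of all 8 were called negative, where 34% of the tested miRNAs were, with a median of -1.09 per 24 h against 0.15 over all tested miRNAs. They ran from -0.44 for miR-194-2-3p to -1.74 for miR-33-5p, with miR-192-5p at -1.24 and miR-802-5p at -0.91. Of the 5 also detected outside liver, 5 were called negative. miR-192-3p, miR-194-2-3p and miR-33-5p were detected on 12, 11 and 11 of the 14 liver arrays, so their slopes rest in part on undetected values. At 4 °C and on RIN in liver, 0 of the 8 were called by limma (2.94% and 53.6% of all tested), and 0 had an unadjusted p under 0.05.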

How the data were processed

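RNA was labelled and hybridised to 1-colour mouse miRNA arrays, and Feature Extraction 10.10.1.1 (grid build mm9 per the file headers) produced the deposited signal intensity of each spot. The authors also deposited a table of log2 values normalized by VSN. A reimplementation of VSN in Python 3.11.15 (numpy 2.4.6), fitted to background-subtracted total signals of 45 arrays, gave the values used here. It was checked against the authors' log2 table, from which the same fit over 46 arrays differed by at most 0.0104. miRNAs detected on at least 5 arrays were tested with limma 3.58.1 in R 4.3.3, with slide as random block for tissues and as fixed block for slopes, or with the exact Wilcoxon-Mann-Whitney test. The limma time slopes of liver and heart at RT, liver against heart, and heart against brain were first scored on simulated data. Its noise was independent between arrays, without an effect of slide. RIN slopes and the rank test were not scored in this way. p-values were adjusted by Benjamini-Hochberg over 815 miRNAs, and adjusted p under 0.05 was called. Correlations used permutation tests, exact below 10 arrays and otherwise with 100000 permutations (scipy 1.17.1). Alternatives were other scalings, filters, blocks and left-out arrays. Both strands were named in full, with the 5 nearest miRNAs by r. Members and lists were chosen with earlier results of these data known. p-values measure mainly the spread between pieces of the same organs, with 1 animal per tissue and temperature, and not the spread between animals. The 0 h heart array from 4 °C was not analysed.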

Additional observations from a re-analysis of the deposited data

Results flagged for a closer look

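In liver at 4 °C the level of miR-122-5p at 0 h, 12.623, lay farther below the other 5 arrays of its slide than Dixon's test allows. Of 8 series of values tested for such a gap this was the 1 found. Chance gives about 5% for each series, so 1 find among 8 is not unusual. The same array was low over most miRNAs, as given with the time course.

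The slope of miR-122-5p over storage time in liver at RT differed from that in heart at RT by -1.047 and from that in brain at RT by -1.103 log2 units per 24 h, each by limma. Against liver at 4 °C the differences were -1.667 for miR-122-5p and -2.039 for miR-122-3p. Each of these slopes comes from 1 slide with the pieces of 1 animal's organ.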

How the results depend on the processing

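The higher level of miR-122-5p in liver passed under all 13 alternatives (6.99 to 8.85 against heart, 8.57 to 12.94 against brain). The lower bounds for miR-122-3p, 6.20 against heart and 6.38 against brain on the log2 scale, became 7.78 and 7.85 with the 75th percentile of miRNAs detected on all arrays, 7.33 and 8.06 with that of all miRNAs, and 7.81 and 8.36 with quantile normalization. The lowest of these bounds among the alternatives were 5.86 against heart and 6.03 against brain. With 1 liver array left out the lowest were 6.02 and 6.20. The fall of miR-122-3p in liver at RT passed under all 12 alternatives (-1.48 to -2.29 with 1 array left out). The fall of miR-122-5p did not pass over the first 24 h (-2.04) and passed under the other 11. With 1 array left out it ran from -1.99 to -1.04 and passed each time. Slopes on RIN in liver for miR-122-3p passed with the 75th percentile of miRNAs detected on all arrays (0.37), quantile normalization (0.49), normexp with quantile normalization (0.30) and tissue as block (0.26), were -0.68 with RIN over 6 only, and ran from 0.11 to 0.62 with 1 liver array left out, passing without 0 h or 48 h at 4 °C. For miR-122-5p they were -0.0447 without scaling, 0.18 with normexp (passing) and -0.89 with RIN over 6 only. At 4 °C the liver slope turned for miR-122-3p with the 75th percentile of miRNAs detected on all arrays (-0.0738), quantile normalization (-0.14), normexp (-0.12) and in the first 24 h (-0.14), with a range from -0.14 to 0.74 when 1 array was left out, and for miR-122-5p with that percentile (-0.0417). Without scaling, low minus high RIN was 0.49 for miR-122-5p and 0.21 for miR-122-3p. The arm relation had r 0.24 under normexp, where quantile normalization gave miR-122-5p the same top value on 11 of 14 liver arrays, and 0.84 to 0.98 with 1 array left out. The alternatives for the arms and the bounds were chosen after seeing the data.

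Estimates of miR-122-5p that did not pass also turned. Slopes on RIN in heart were -0.15 without scaling and -1.10 with RIN over 6 only, and in brain 0.16, 0.0865 and 0.0176 with the 75th percentile of all miRNAs, quantile normalization and normexp. Liver minus heart on RIN was -0.0583 with quantile normalization. Slopes over time without scaling, on log2(hours + 1) and in the first 24 h were 0.23, 0.0557 and 0.81 in heart at RT (where normexp gave -0.16, which passed), and 0.32, 0.0302 and 1.48 in brain at RT. At 4 °C they were -0.31 in heart and -0.79 in brain in the first 24 h, -0.0038 in heart with the percentile of miRNAs detected on all arrays, and -0.0069 in brain with normexp. The cause was not tested. Differences between the liver RT slope of miR-122-5p and the slopes of heart RT, brain RT and liver at 4 °C did not pass with Bonferroni or in the first 24 h. The labels give each array the same replicate number, so that number pairs no arrays and gives no block. With temperature and time as block, a fit chosen after seeing the data that sets tissues of the same storage condition side by side, liver exceeded heart by 8.33 and brain by 11.82 for miR-122-5p, and both passed. miR-122-5p lies near the detection limit in brain and miR-122-3p below it in heart and brain, so slopes there are imprecise or not given.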

Other observations

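On the heart array of 0 h at 4 °C, which was set aside, miR-122-5p was detected with a signal of 16.4 units and miR-122-3p was not detected. The other heart arrays had 26.9 to 155 units of miR-122-5p.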
